A study of Mus musculus with 27 samples.

Results

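Tbx1, Tbx2, Tbx3, Tbx15 and Tbx18, T-box genes that are expressed in embryonic mesenchyme, were followed through every group of a mouse limb bud series. They were taken by gene name, and they are 5 of the 23279 genes in the deposited table. The family's limb-type genes Tbx4 and Tbx5 and the genes Tbx6 and Tbx20 were not among them. Limb buds grown in culture from embryonic stem cells were set beside limb buds and other tissues taken from embryos, and RNA was sequenced in 9 groups of 3 libraries. ES-FLB and ES-HLB were forelimb-type and hindlimb-type limb buds (ES-LBs) made from EB5 Hand2::GFP reporter cells, one embryonic stem cell line, and collected on day 9 of culture. Both received BMP4 and Matrigel, then the BMP inhibitor LDN193189, Wnt3 and hydrocortisone. ES-FLB in addition received retinoic acid for a short time, and ES-HLB a retinoic acid antagonist. Only Hand2::GFP-positive mesenchyme, sorted by flow cytometry, was sequenced from both. The embryonic groups came from Slc:ICR mice and were whole dissected tissue, neither sorted nor treated, of 3 embryos according to the methods. They were early forelimb and hindlimb buds (early FLB, early HLB; both labelled E10.0), E10.5 forelimb and hindlimb buds (E10.5 FLB, E10.5 HLB), and E10.5 branchial arch (BA), cardiac tissue (Ca) and tail bud (TB). The labels give both early groups one stage, whereas a legend of the study places the early hindlimb bud later than the early forelimb bud. Limb type and stage therefore cannot be told apart in the early comparison. Nor can limb type and the length of the interval where the changes from early to E10.5 buds are compared.

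T-box proteins bind DNA through a shared domain, the T-box, and most act as switches of cell fate in the embryo. Tbx2 and Tbx3 are close relatives that mainly repress transcription. They are known from the anterior and posterior margins of the limb bud, from the branchial arches and from the non-chamber parts of the heart, and reduced TBX3 dosage in people malforms the ulnar side of the arm and the mammary gland. Tbx15 and Tbx18 form another close pair, and both can recruit corepressors of the Groucho family. Tbx15 is known for its part in the limb skeleton, and Tbx18 for the epicardium, the venous pole of the heart and the anterior part of each somite. Tbx1 acts in pharyngeal mesoderm and endoderm and is the main gene of the DiGeorge deletion.

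Values are reads of a gene per 1000000 reads on genes (CPM), rescaled between libraries, and are called scaled CPM here. The 26 libraries used held 5543747 to 22142313 reads on genes, as read from the steps between the lowest values. A value of 3 reads corresponds to 0.135 to 0.541 CPM before rescaling. Replicates correlated at r = 0.987 to 0.997 over 14546 genes (log2 scale). The early buds were the most deeply sequenced groups, with 19642275 to 22142313 reads against 5543747 to 8541934 elsewhere, so that depth and stage cannot be told apart in comparisons with early buds. E10.5 HLB replicate 2 was left out: nearly all expressed genes on chromosomes 5, 6, 7, 8, 9, X and Y (99.6% or more of each) and 20.3% of those on chromosome 4 were at 0 in it, and Tbx3 (chromosome 5) and Tbx18 (chromosome 9) are among them. E10.5 HLB therefore has n = 2. Marker genes were high in the tissues the labels name: the summed level of 6 cardiomyocyte genes was 15663 to 19199 scaled CPM in Ca and at most 94.9 elsewhere, and that of 5 tail bud genes was 194 to 236 in TB and at most 4.78 elsewhere. The 8 limb mesenchyme markers summed to 1055 to 1241 scaled CPM in the ES-LBs, to 1139 to 1484 in the limb buds and to 1013 to 1141 in BA. They did not move together, as singled out after their values were seen: Prrx1 averaged 460 in ES-FLB and 641 in ES-HLB against 372 and 431 in early FLB and HLB, whereas Lhx9, Lmx1b and Hoxd11 averaged at most 5.47 scaled CPM in the ES-LBs, below the 24.1 to 188 of the limb buds apart from Hoxd11 in early FLB (2.16). In bulk tissue, fewer cells of a type and less RNA per cell cannot be told apart.

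Together the 5 genes were highest in ES-FLB and in E10.5 FLB, and each group had its own mix. Per kilobase of annotated exon, their summed level was 147 ± 2.75 scaled CPM (SD, n = 3) in ES-FLB, 129 ± 1.89 in ES-HLB, 138 ± 3.57 in E10.5 FLB and 91.4 ± 4.53 in E10.5 HLB (n = 2). It was 34.0 ± 1.59 in early FLB and 48.2 ± 7.55 in early HLB. The other tissues held 63.3 ± 4.34 in BA, 34.9 ± 4.89 in Ca and 11.9 ± 1.34 in TB. Tbx2 made up 78.0% of the sum in ES-FLB, 63.7% in ES-HLB and 73.9% in BA. Tbx15 was the largest share in 3 of the 4 limb bud groups, at 49.7% in early HLB, 54.7% in E10.5 FLB and 63.2% in E10.5 HLB. In early FLB the largest shares were Tbx3 at 34.6% and Tbx2 at 30.3%. Tbx18 held 54.5% in Ca, where Tbx15 held 0.415%. These shares depend on the length used. Per kilobase of the longest transcript instead, 20 of 45 shares moved by more than 1 SD. Tbx3 and Tbx2 then held 40.8% and 26.8% in early FLB, and Tbx2 held 74.0% in ES-FLB and 68.7% in BA.

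**Figure D1:**
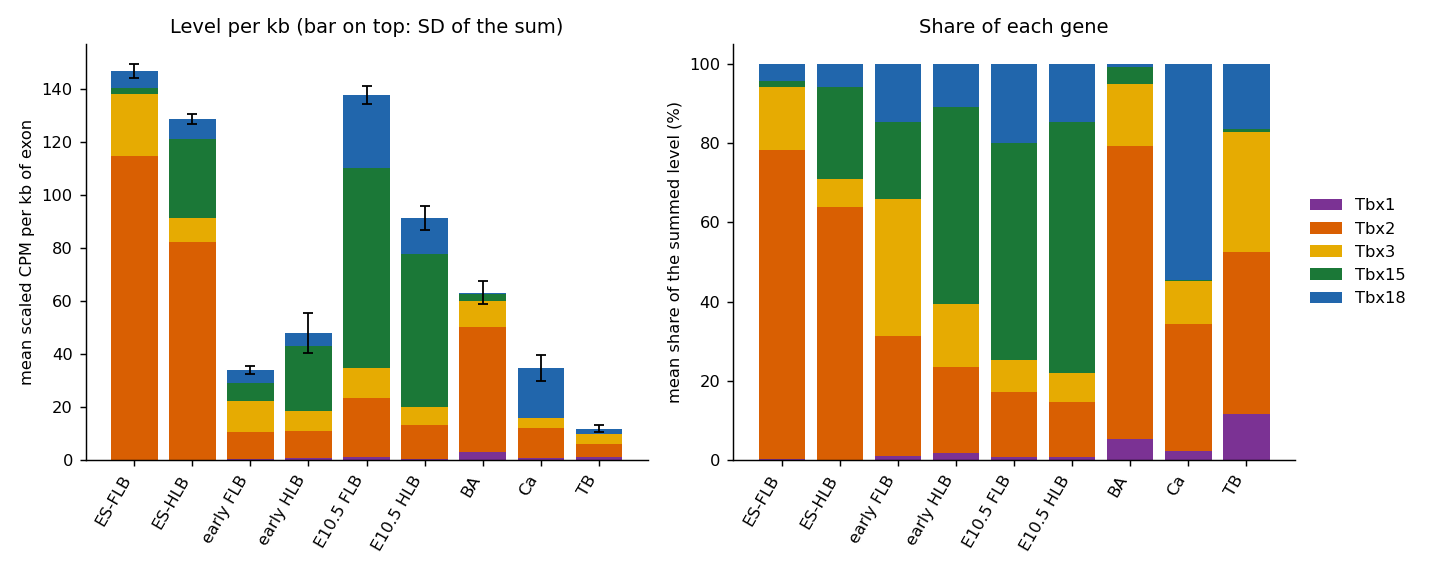
Left, mean level of each gene in scaled CPM per kilobase of exon, stacked by group, with the SD of the sum over libraries as the bar on top (n = 3 libraries, E10.5 HLB n = 2). Right, the mean share of each gene in that sum, in percent: Tbx2 fills 78.0% of ES-FLB and 73.9% of BA, Tbx15 63.2% of E10.5 HLB and Tbx18 54.5% of Ca.

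Tbx2 (chr11:85832551-85841948, plus strand, GRCm38, GENCODE M21) was the member that set the cultured buds apart. The 3 ES-FLB libraries stood at 430, 401 and 416 scaled CPM and the 3 ES-HLB libraries at 294, 294 and 304. The early buds held 32.4, 39.5 and 39.8 in FLB and 36.4, 36.04 and 39.6 in HLB. Every cultured library lay above every embryonic limb bud library, and both early groups overlapped. At E10.5 the forelimb libraries were at 81.6, 73.0 and 91.2 and the hindlimb libraries at 44.8 and 47.0. BA was the highest of the embryonic tissues, at 189, 158 and 161. Ca held 34.0, 34.8 and 54.2, and TB 21.2, 16.2 and 15.8. From high to low the order was ES-FLB, ES-HLB, BA, E10.5 FLB, E10.5 HLB, Ca, early HLB, early FLB and TB. Each of the first 4 steps passed the test, the next 3 did not (E10.5 HLB over Ca, log2 fold change 0.19, adjusted p = 0.288), and TB lay below all others (1.06 on the log2 scale under early FLB, adjusted p = 4.0e-06).

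Tbx3 (chr5:119670669-119684724, plus strand) spanned a narrower range, with the ES-FLB above all others. Its 3 ES-FLB libraries held 156, 159 and 146 scaled CPM, and the 3 ES-HLB libraries 54.2, 64.3 and 65.4. The forelimb buds stood at 80.3, 71.0 and 82.2 in early FLB and at 76.6, 68.9 and 78.4 at E10.5. Early HLB held 42.8, 54.9 and 50.4, and E10.5 HLB 39.0 and 52.6. All forelimb libraries lay above all hindlimb libraries of the same stage. BA reached the forelimb level with 71.4, 67.7 and 59.4, whereas Ca (19.9, 23.4 and 32.0) and TB (26.9, 17.9 and 27.8) were low. In the order of levels, ES-FLB was 0.98 ± 0.17 (SE, log2) above the next group, early FLB (adjusted p = 3.6e-05). Early FLB, E10.5 FLB, BA, ES-HLB, early HLB and E10.5 HLB followed with no step between neighbours past the test, then Ca 0.87 lower (adjusted p = 0.00045), and Ca and TB did not differ beyond their spread. Some groups further apart in that run did differ, such as early FLB over E10.5 HLB (0.77, adjusted p = 0.0026) and BA over early HLB (0.42, adjusted p = 0.041). Tbx3 shares 115 exonic bases with the antisense gene Tbx3os1, which is not a row of the table, and whether reads were counted by strand is not given in the sources used here.

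Tbx15 (chr3:99240381-99354259, plus strand) had the widest range of the 5 genes, from its high level in E10.5 limb buds to a few reads in heart and tail bud. Early FLB held 30.7, 30.1 and 14.4 scaled CPM and early HLB 119, 65.1 and 89.0, without overlap. The E10.5 forelimb libraries stood at 281, 288 and 277 and the hindlimb libraries at 212 and 220. In culture the types were far apart: ES-FLB held 6.81, 8.98 and 9.59, and ES-HLB 115, 114 and 107. BA had 8.54, 9.87 and 11.2, at the level of ES-FLB. Ca held 0.391, 0.561 and 0.683, which is 3, 4 and 5 reads, and TB 0.748, 0.232 and 0.114, which is 6, 2 and 1 reads, values at or near the 3 reads taken as the limit of detection. The neighbours in the order of levels whose step did not pass the test were E10.5 FLB and E10.5 HLB, ES-HLB and early HLB, BA and ES-FLB, and Ca and TB. The early FLB library with the lowest Tbx15, replicate 3, also had the highest sum of the 6 cardiomyocyte markers in its group, 19.4 scaled CPM against 5.41 and 6.74; any part of this in its Tbx15 level was not tested.

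Tbx18 (chr9:87702800-87731260, minus strand) was the highest of the 5 genes per kilobase in heart and the lowest in the arch. Ca libraries held 92.2, 84.2 and 89.4 scaled CPM. The E10.5 forelimb buds were higher still, at 129, 124 and 138, and the E10.5 hindlimb buds lower, at 59.5 and 66.7. Early buds were near each other and overlapped, with 26.1, 22.6 and 21.6 in FLB and 30.7, 19.6 and 24.0 in HLB. The ES-LBs also overlapped, with 26.6, 32.8 and 31.9 in ES-FLB and 30.3, 40.9 and 35.6 in ES-HLB. TB stood at 8.73, 9.30 and 9.27, and BA was the lowest group at 2.14, 1.51 and 3.90. In the order of levels, the step from Ca to E10.5 HLB did not pass (0.49, adjusted p = 0.058), nor did those between ES-HLB, ES-FLB, early HLB and early FLB, which follow each other. Tbx18 shares 970 exonic bases with D030062O11Rik, a transcript of uncertain status on the other strand, which is not a row of the table.

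Tbx1 (chr16:18580979-18590671, minus strand) was a low-level gene outside the branchial arch. BA libraries held 7.87, 9.41 and 17.7 scaled CPM, and TB libraries 3.99, 4.53 and 5.95. Limb buds ranged from 0.721 to 4.77, with 0.721, 1.57 and 1.41 in early FLB and 2.93, 2.57 and 4.02 in early HLB. The E10.5 limb buds overlapped, with 4.77, 2.15 and 4.51 in FLB and 2.18 and 2.47 in HLB. Ca was spread from 1.04 to 5.60. The ES-LBs were lowest: 1.22, 1.30 and 0.728 in ES-FLB and 0.509, 0.281 and 0.477 in ES-HLB, the latter resting on 10 reads in all 3 libraries. BA was 1.12 ± 0.37 (SE, log2) above TB (adjusted p = 0.0156), and none of the 7 further steps between neighbours passed the test. Groups further apart in the order did differ, and 22 of all 36 pairs of groups passed.

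**Figure D2:**
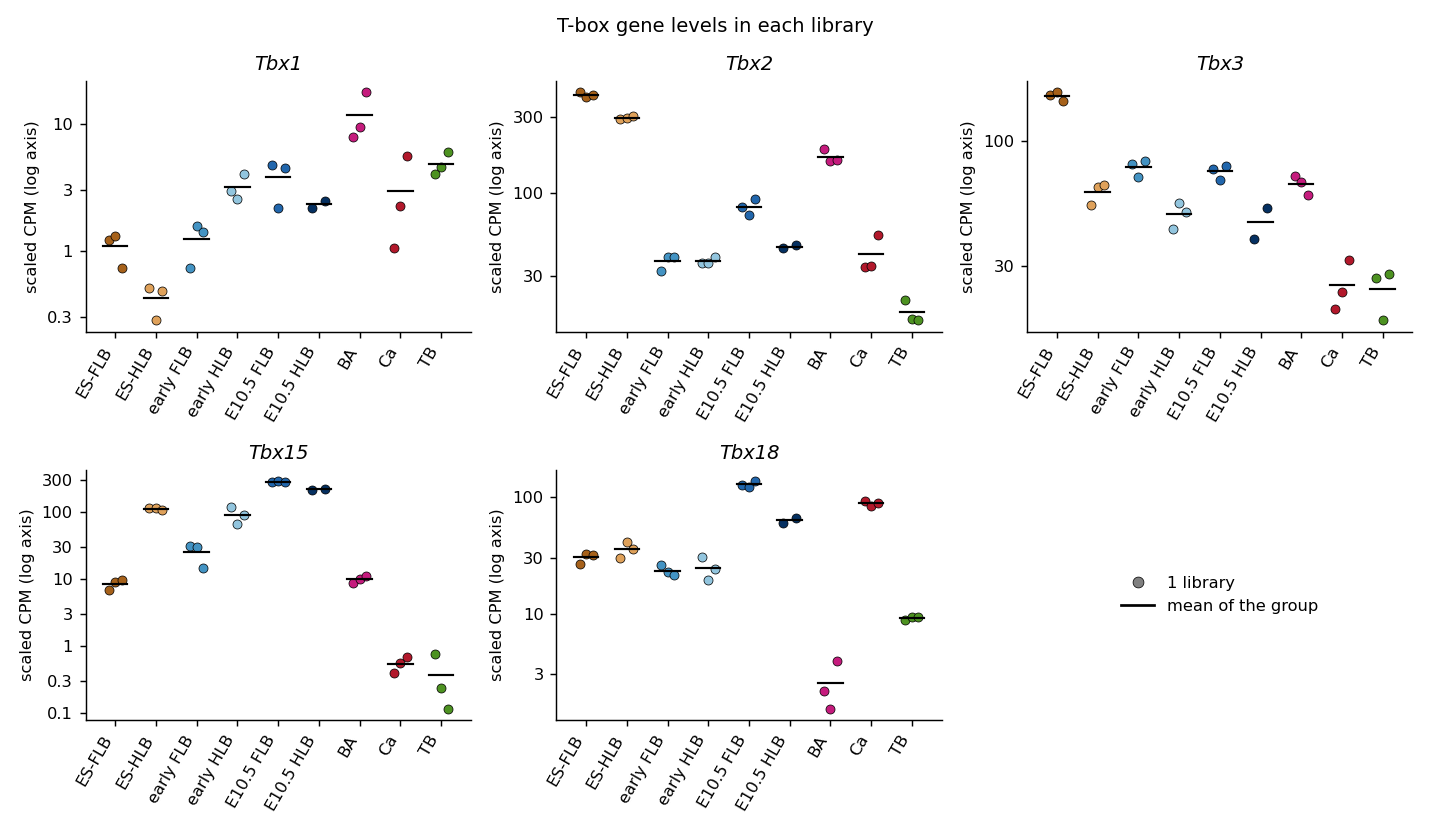
Scaled CPM (log axis) of each gene in every library, by group; a point is 1 library and the line the group mean (n = 3, E10.5 HLB n = 2). Tbx2 is at 294 or more in the 6 ES-LB libraries and at 91.2 or less in all limb bud libraries, Tbx15 falls to 1 to 6 reads a library in Ca and TB, and Tbx18 is at 84.2 to 92.2 in Ca and at 3.90 or less in BA.

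Early hindlimb buds against early forelimb buds asked which genes differ by limb type at the start of outgrowth. Tbx15 was higher in early HLB and Tbx3 lower, whereas Tbx2 and Tbx18 had nearly equal means. Mean Tbx15 was 91.0 ± 26.9 scaled CPM (SD, n = 3) in HLB against 25.1 ± 9.27 in FLB, a log2 fold change of 1.88 ± 0.27 (SE, adjusted p = 6.8e-05, limma). Tbx3 fell from 77.9 ± 6.02 to 49.4 ± 6.08, by 0.66 ± 0.17 on the log2 scale (adjusted p = 0.0096). Tbx1 was 3.17 ± 0.757 in HLB and 1.23 ± 0.452 in FLB (log2 fold change 1.10 ± 0.37, adjusted p = 0.038). The differences of Tbx2 (95% interval -0.29 to 0.31) and Tbx18 (-0.36 to 0.48) were not past the test. So 3 of the 5 genes passed, where 18.7% of all genes tested did. The Tbx1 call was lost on leaving out early FLB replicate 1 (adjusted p = 0.180) or 3 (0.063), or early HLB replicate 1 (0.084) or 3 (0.142), and the Tbx3 call without early HLB replicate 1 (0.060). With that replicate left out only Tbx15 passed.

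At E10.5 the order within the limb buds was another one. All 5 genes had lower means in the hindlimb bud, and 3 passed the test, where 21.1% of all genes tested did. Tbx18 fell from 130 ± 7.09 scaled CPM in FLB (n = 3) to 63.1 ± 5.11 in HLB (n = 2), a log2 fold change of -1.04 ± 0.22 (adjusted p = 0.0027). Tbx2 fell from 81.9 ± 9.12 to 45.9 ± 1.52 (-0.82 ± 0.16, adjusted p = 0.0012), and Tbx3 from 74.6 ± 5.06 to 45.8 ± 9.62 (-0.71 ± 0.19, adjusted p = 0.0121). Tbx15 stood at 282 ± 5.62 and 216 ± 5.68; its libraries did not overlap, but the difference of -0.38 ± 0.31 did not pass (adjusted p = 0.429). Fitted with the libraries of these 2 groups alone, Tbx15 passed with the same difference (adjusted p = 5.2e-09). The Tbx3 call was lost without E10.5 HLB replicate 1 (adjusted p = 0.190), and the number of all genes called then fell from 3070 to 1440. The summed level of the 7 somite markers moved the same way as Tbx18, at 81.8 to 103 scaled CPM in E10.5 FLB and 40.4 to 40.8 in E10.5 HLB. That difference lay mainly in Pax1, a sclerotome gene, at 44.3 and 4.48. Any part of somite cells in the Tbx18 difference was not tested.

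In culture, ES-HLB against ES-FLB asked whether the types made with the retinoic acid antagonist and with retinoic acid differ. Tbx15 showed the widest gap of the members, 112 ± 4.66 scaled CPM in ES-HLB and 8.46 ± 1.46 in ES-FLB (log2 fold change 3.66 ± 0.27, adjusted p = 1.5e-08). Tbx3 was lower in ES-HLB, 61.3 ± 6.18 against 154 ± 6.51 (-1.32 ± 0.17, adjusted p = 1.2e-05). Tbx2 was lower too, 298 ± 5.66 against 415 ± 14.3 (-0.48 ± 0.14, adjusted p = 0.0224), a call that was lost without ES-FLB replicate 1 or 3 or ES-HLB replicate 1 or 2 (adjusted p = 0.057 to 0.068). Tbx18 did not pass (0.22, 95% interval -0.20 to 0.64), nor did Tbx1 (-0.77, adjusted p = 0.161), whose levels rest on 26 and 10 reads. In all, 3 of the 5 passed, where 19.8% of all genes tested did. The libraries of Tbx1, Tbx2, Tbx3 and Tbx15 did not overlap between the types. Markers of other cell types differed between the sorted groups too. The 6 epicardial markers other than Tbx18 summed to 68.0 to 73.2 scaled CPM in ES-HLB and 199 to 215 in ES-FLB. Among them Aldh1a2 alone averaged 30.7 and 169, so that this difference lay mainly in that gene. The surface epithelium markers summed to 199 to 213 in ES-HLB and 101 to 153 in ES-FLB, and the erythroid genes to 82.5 to 155 and 5.10 to 7.81. The 5 markers listed for arch core mesoderm summed to 89.1 to 97.2 and 129 to 141. That set summed to at most 37.9 in BA itself and to 113 to 202 in the limb buds. It therefore did not single out arch cells here. The part of other cell types in these differences was not tested.

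The limb-type difference in culture was set against that of the early buds in one test of the difference between differences. Tbx15 had the larger hindlimb excess in culture, by 1.79 ± 0.39 on the log2 scale (adjusted p = 0.0028). Tbx1, at 1.10 in the embryo and -0.77 in culture, gave a difference of -1.87 ± 0.52 (adjusted p = 0.0125), which was lost with a pseudocount of 2 CPM (adjusted p = 0.068). Tbx3 (-0.67, 95% interval -1.17 to -0.16, adjusted p = 0.059), Tbx2 (-0.49, -0.91 to -0.06, adjusted p = 0.105) and Tbx18 (0.16, -0.44 to 0.75) did not pass. Thus 2 of the 5 passed, where 19.9% of all genes tested did. Over 37 other settings, Tbx3 passed in 10 and Tbx2 in 2, and both passed with the libraries of these 4 groups alone or without Ca replicate 3.

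**Figure D3:**
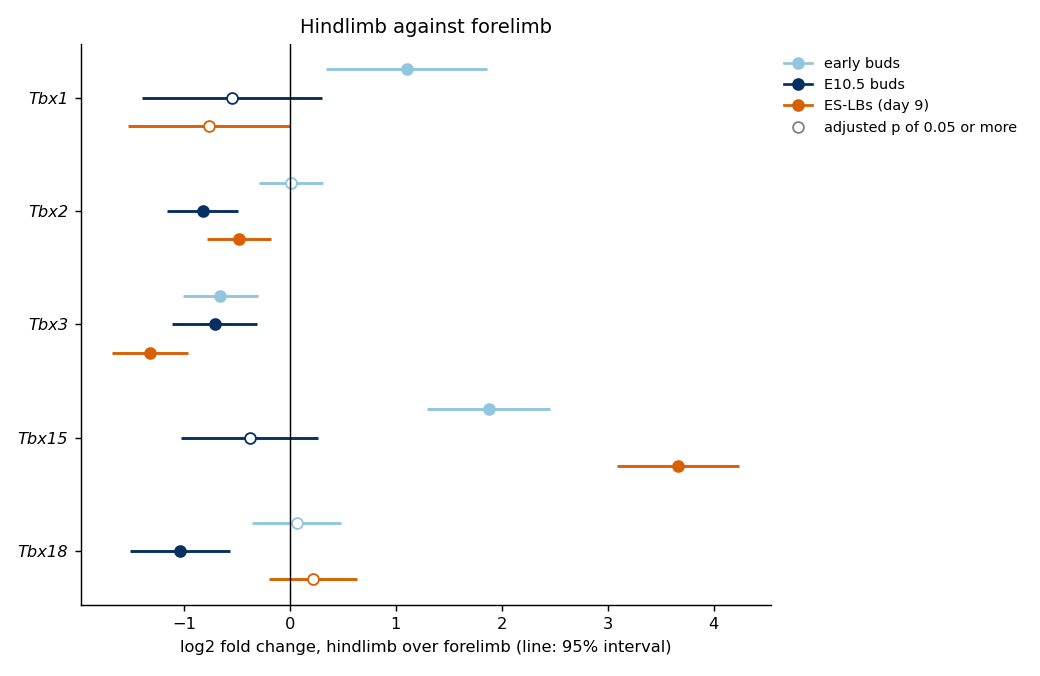
Log2 fold change of hindlimb over forelimb for each gene in early buds, E10.5 buds and ES-LBs, with 95% intervals; filled points have an adjusted p under 0.05. Tbx15 is at 1.88 in early buds, -0.38 (open) at E10.5 and 3.66 in ES-LBs, while Tbx3 is below 0 in all 3.

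Other genes of the pathway, from lists set by their known ties to these factors, moved in both directions between limb types. By direction, 1194 of 14546 genes tested were higher and 1529 lower in early HLB than in early FLB, and 10.7% of all genes tested were higher and 9.07% lower in ES-HLB than in ES-FLB. Of 8 other T-box genes tested, 1 was higher and 2 lower in early HLB, with the limb selectors Tbx4 (log2 fold change 6.76, adjusted p = 2.3e-09) and Tbx5 (-6.36, adjusted p = 1.4e-15) at the ends. Of 6 Groucho-family genes, 3 were higher and 1 lower in early HLB, and Aes rose most (1.56, adjusted p = 1.6e-12). In ES-HLB against ES-FLB, 2 of the 6 were higher and 1 lower (Tle1, -0.80, adjusted p = 3.5e-09). Of 12 limb bud genes tied to Tbx2 and Tbx3, 3 were higher and 2 lower in early HLB. In ES-HLB against ES-FLB 6 were higher and 2 lower. Grem1, a BMP antagonist of the outgrowth loop, was higher in early HLB (1.48, adjusted p = 0.0011) and lower in ES-HLB (-1.86, adjusted p = 9.2e-05). The median log2 fold change over this list was -0.01 in early buds and 0.25 in culture, and the medians over all genes tested lay between -0.03 and 0.03 in every comparison reported here.

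E10.5 forelimb buds against early forelimb buds asked what changes as the bud grows. Tbx15, Tbx18, Tbx1 and Tbx2 rose and Tbx3 did not pass the test: 4 of the 5 passed, where 58.9% of all genes tested did. Tbx15 rose from 25.1 to 282 scaled CPM (log2 fold change 3.54 ± 0.27, adjusted p = 2.2e-09) and Tbx18 from 23.4 ± 2.36 to 130 (2.45 ± 0.20, adjusted p = 2.6e-09). Tbx2 rose from 37.2 ± 4.16 to 81.9 (1.13 ± 0.14, adjusted p = 1.5e-06) and Tbx1 from 1.23 to 3.81 ± 1.44 (1.28 ± 0.37, adjusted p = 0.0044). Tbx3 differed by -0.06 (95% interval -0.42 to 0.30). The summed level of the somite markers was 46.0 to 55.5 scaled CPM in early FLB and 81.8 to 103 at E10.5. Pax1 alone went from 0.190 to 44.3, so that this rise lay mainly in that gene and not in the markers together. Any part of somite cells in the Tbx18 and Tbx1 changes was not tested.

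In the hindlimb bud the same comparison gave smaller changes, with 2 of the 5 past the test where 29.0% of all genes tested were. Tbx15 rose from 91.0 to 216 scaled CPM (log2 fold change 1.29 ± 0.31, adjusted p = 0.0038) and Tbx18 from 24.8 ± 5.62 to 63.1 (1.35 ± 0.22, adjusted p = 0.00013). Tbx2 (0.30, adjusted p = 0.183), Tbx3 (-0.11) and Tbx1 (-0.36) did not pass. The somite markers summed to 29.4 to 41.6 in early HLB and 40.4 to 40.8 at E10.5. Tested directly, the stage change was smaller in HLB than in FLB for Tbx15 (-2.26 ± 0.41, adjusted p = 0.00075), Tbx18 (-1.10 ± 0.30, adjusted p = 0.0131) and Tbx2 (-0.83 ± 0.22, adjusted p = 0.0096). Tbx1, at -0.36 in HLB and 1.28 in FLB, gave a difference of -1.65 ± 0.55 (adjusted p = 0.0357). These were 4 of the 5, where 20.9% of all genes tested passed. By the legend that places the early hindlimb bud later, its interval to E10.5 was shorter than that of the forelimb bud. Limb type and length of interval therefore cannot be told apart in this test. Without E10.5 HLB replicate 1, 2 of the 5 passed, the calls of Tbx18 (adjusted p = 0.064) and Tbx1 (0.121) being lost. The Tbx1 call was lost as well without early FLB replicate 1, early HLB replicate 1 or 3, E10.5 FLB replicate 1 or 3, or E10.5 HLB replicate 3 (adjusted p = 0.061 to 0.089).

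Cultured buds were compared with early buds of their own type. Tbx2 was far above the early level in both, 11.2-fold in ES-FLB (log2 fold change 3.47 ± 0.14, adjusted p = 2.4e-14) and 7.97-fold in ES-HLB (2.98 ± 0.14, adjusted p = 3.4e-13). Tbx3 was higher in ES-FLB (0.98 ± 0.17, adjusted p = 3.6e-05), and in ES-HLB the difference of 0.31 did not pass (adjusted p = 0.104), though it did in 2 of 37 other settings. Tbx15 was lower in ES-FLB than in early FLB (-1.45 ± 0.27, adjusted p = 0.00010), while ES-HLB and early HLB did not differ past the test (0.34, 95% interval -0.24 to 0.92). Tbx18 differed by 0.37 in ES-FLB (adjusted p = 0.099, past the threshold in 5 of 37 other settings) and by 0.53 in ES-HLB (adjusted p = 0.0231). The libraries of ES-HLB and early HLB overlapped, and this call was lost without ES-HLB replicate 2 or early HLB replicate 2 or 3 (adjusted p = 0.053 to 0.125). Tbx1 was lower in ES-HLB by 1.98 ± 0.37 on the log2 scale (adjusted p = 3.7e-05), while ES-FLB gave -0.12 (adjusted p = 0.787). For Tbx1 the ratio of reads of early HLB to ES-HLB was 7.37, with a 95% counting interval of 3.92 to 15.6. In every ratio of reads given here, the summed reads of a group were first divided by its summed, rescaled depth. In each type 3 of the 5 passed, where 76.6% (ES-FLB) and 74.8% (ES-HLB) of all genes tested did, so that these counts are no larger than the background.

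Against E10.5 buds the cultured buds differed in more members. All 5 passed between ES-FLB and E10.5 FLB, where 68.5% of all genes tested did: Tbx2 (2.34 ± 0.14) and Tbx3 (1.04 ± 0.17) were higher in ES-FLB, and Tbx15 (-4.99 ± 0.27), Tbx18 (-2.08 ± 0.20) and Tbx1 (-1.40 ± 0.37) were lower. Between ES-HLB and E10.5 HLB 4 passed, where 68.2% of all genes tested did. Tbx2 was higher in ES-HLB (2.68 ± 0.16), and Tbx15 (-0.95 ± 0.31, adjusted p = 0.0108), Tbx18 (-0.83 ± 0.22) and Tbx1 (-1.62 ± 0.41) were lower. The Tbx15 call was lost without E10.5 HLB replicate 3 (adjusted p = 0.054). Tbx3 was higher by 0.43 ± 0.19, which did not pass (adjusted p = 0.0537) and passed in 14 of 37 other settings.

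**Figure D4:**
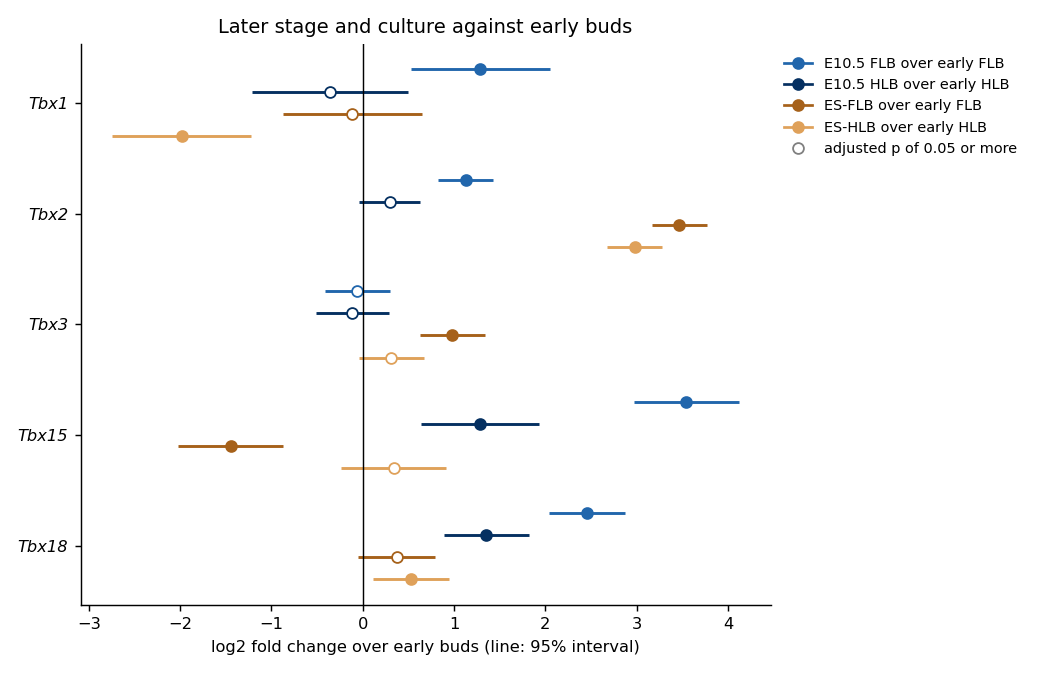
Log2 fold change over early buds of the same limb type for E10.5 buds (blue) and ES-LBs (brown), with 95% intervals; filled points have an adjusted p under 0.05. Tbx2 is at 3.47 and 2.98 in the ES-LBs and at 1.13 and 0.30 in the E10.5 buds, and Tbx15 and Tbx18 rise with stage in both limb types.

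The ES-LBs were sorted and the buds were not, and markers of other cell types differed between them. The summed level of 4 endothelial markers was 20.8 to 37.0 scaled CPM in the ES-LBs and 230.5 to 324 in the limb buds. That of 7 surface epithelium markers was 101 to 213 and 246 to 422, and that of 4 erythroid genes 5.10 to 155 and 2209 to 6475. The 7 somite markers summed to 18.3 to 22.5 in the ES-LBs and to 29.4 to 103 in the limb buds. The 6 epicardial markers other than Tbx18 ran the other way in ES-FLB, at 199 to 215 against 81.9 to 96.2 in early FLB and 31.0 to 38.0 in E10.5 FLB. This lay mainly in Aldh1a2, which averaged 169 in ES-FLB, 43.5 in early FLB and 6.83 in E10.5 FLB. The sort was on Hand2, which the study also uses as a posterior marker in limb bud mesenchyme, whereas the embryonic buds were whole. The part of these cell types and of the sort in the differences above, those of Tbx2 and Tbx3 included, was not tested. Tbx2 was 5.07 to 11.2 times as high in ES-LBs as in buds of the same type.

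Groucho-family genes and cell cycle genes tied to these factors were compared between culture and early embryo. Most genes of any kind differed there, so that their counts are to be read beside the shares of all genes. Of all genes tested, 37.4% were higher and 37.4% lower in ES-HLB than in early HLB, and 38.2% higher and 38.4% lower in ES-FLB than in early FLB. All 6 Groucho-family genes were higher in ES-HLB than in early HLB, with Tle2 at 2.32 on the log2 scale (adjusted p = 1.8e-13). In ES-FLB against early FLB 4 of the 6 were higher and 1 lower. Cdkn1a, which encodes the cell cycle inhibitor p21 and is a known target of repression by Tbx2, was higher in both ES-LBs (2.38 in ES-FLB, adjusted p = 1.9e-17, and 3.01 in ES-HLB, adjusted p = 8.8e-20). Mycn, a driver of limb bud growth, was lower in both (-2.85, adjusted p = 1.6e-26, and -1.88, adjusted p = 9.7e-22). Of the 4 cell cycle genes tested, 2 were higher and 1 lower in ES-FLB, and 2 were higher and 2 lower in ES-HLB. Cdkn2a, the gene of p16 and p19, averaged at most 1.02 scaled CPM in a group and was not tested.

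The branchial arch was compared with the E10.5 forelimb bud, since Hand2-positive mesenchyme is found in both. Tbx1 and Tbx2 were higher in BA and Tbx15 and Tbx18 lower, and Tbx3 did not differ past the test: 4 of the 5 passed, where 20.7% of all genes tested did. Tbx1 was 11.7 ± 5.30 scaled CPM in BA against 3.81 ± 1.44 (log2 fold change 1.48 ± 0.37, adjusted p = 0.0048), and Tbx2 170 ± 17.2 against 81.9 (1.05 ± 0.14, adjusted p = 1.9e-05). Tbx18 was 2.51 ± 1.24 against 130, a ratio of reads of 51.9 (95% counting interval 40.6 to 67.5), and Tbx15 9.88 ± 1.34 against 282 (-4.77 ± 0.27, adjusted p = 1.7e-10). Tbx3 was 66.2 ± 6.11 against 74.6 (-0.17, 95% interval -0.53 to 0.18). Of 18 genes of the pharyngeal Tbx1 network, 10 were higher in BA and 5 lower, beside 11.1% and 9.58% of all genes tested. Isl1 (2.73, adjusted p = 2.0e-10) and Foxc2 (2.54, adjusted p = 5.1e-13), both transcription factors of pharyngeal mesoderm, were among the former, and the retinoic acid-degrading enzyme gene Cyp26b1 (-3.24, adjusted p = 2.4e-12) among the latter. Lhx2 also passed the test and was among the genes of that list with the largest change. The median log2 fold change over that list was 0.73.

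In cardiac tissue Tbx18 had the highest level per kilobase of the 5 genes, and Tbx15 was at the limit of detection. Tbx18 was 88.6 ± 4.08 scaled CPM in Ca against 130 in E10.5 FLB (-0.55 ± 0.20, adjusted p = 0.0184). That call was lost without E10.5 FLB replicate 3 or Ca replicate 2 (adjusted p = 0.053 in each). Tbx15 held 12 reads in the 3 Ca libraries against 4988, a ratio of reads, scaled for depth, of 520 (95% counting interval 297 to 1007). Tbx2 was 41.0 ± 11.4 (-1.02 ± 0.14, adjusted p = 2.9e-06) and Tbx3 25.1 ± 6.18 (-1.58 ± 0.17, adjusted p = 8.3e-08). Tbx1 did not differ past the test (-0.48, adjusted p = 0.246), but did, as lower in Ca, without Ca replicate 3 (adjusted p = 0.0061). These were 4 of the 5, where 74.6% of all genes tested passed. The 6 epicardial markers other than Tbx18 summed to 308 to 379 in Ca and to 31.0 to 38.0 in E10.5 FLB. Of 10 cardiac genes tied to T-box factors, 9 were higher in Ca and 1 lower, beside 36.9% and 37.7% of all genes tested, with a median log2 fold change of 5.69. Among them were Nppa (11.37, adjusted p = 3.0e-29) and Smpx (8.84, adjusted p = 1.7e-25), chamber genes that Tbx2 and Tbx3 are known to repress.

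Between the branchial arch and the heart all 5 genes differed, where 74.8% of all genes tested did. Tbx15 (log2 fold change 3.31 ± 0.27, adjusted p = 2.3e-09; ratio of reads 18.2, counting interval 10.2 to 35.6), Tbx2 (2.06 ± 0.14, adjusted p = 1.1e-10), Tbx1 (1.96 ± 0.37, adjusted p = 4.4e-05) and Tbx3 (1.40 ± 0.17, adjusted p = 4.3e-07) were higher in BA. Tbx18 was lower there (-4.96 ± 0.20, adjusted p = 1.3e-14; ratio of reads 35.4 in favour of Ca, counting interval 27.7 to 46.1). Tbx18 was thus the only one of the 5 that was lower in the arch.

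In the tail bud 4 of the 5 genes differed from E10.5 FLB, where 45.5% of all genes tested did, and Tbx1 did not. Tbx2 was 17.7 ± 3.03 scaled CPM (-2.18 ± 0.14, adjusted p = 2.4e-10), Tbx3 24.2 ± 5.49 (-1.63 ± 0.17, adjusted p = 2.1e-07) and Tbx18 9.10 ± 0.320 (-3.76 ± 0.20, adjusted p = 7.4e-12). Tbx15 held 9 reads against 4988, a ratio of reads, scaled for depth, of 794 (95% counting interval 418 to 1738). Tbx1 was 4.83 ± 1.01 against 3.81 (0.35, 95% interval -0.41 to 1.12) and took 11.6% of the summed level per kilobase, its highest share of the 9 groups. The counting intervals given here cover counting error only.

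Set beside the rest of the family, Tbx2 and Tbx3 were widely expressed while most other T-box genes were limited to a few groups. The table holds 12 other T-box genes, of which 8 passed the filter on low values. Tbx5 averaged 70.6 scaled CPM in ES-FLB, 97.2 in early FLB, 162 in E10.5 FLB and 98.4 in Ca, and at most 3.14 elsewhere. Tbx4 averaged 56.1 in ES-HLB, 135 in early HLB and 169 in E10.5 HLB, 12.0 in E10.5 FLB and at most 3.40 elsewhere. Tbx20, a cardiac T-box gene, averaged 413 in Ca and 15.4 in ES-HLB, 8.10 in ES-FLB and 8.07 in early FLB. T (129) and Tbx6 (47.3), genes of the primitive streak and presomitic mesoderm, were high in TB alone, and Tbx22, a palate gene, in BA (9.75). Mga, a MAX partner with a T-box, was at 110 to 253 in all 9 groups. Tbx2 lies 44.5 kb from Tbx4 and Tbx3 148 kb from Tbx5. In ES-HLB against ES-FLB, Tbx2 was lower and Tbx4 higher (4.14, adjusted p = 1.1e-06), and Tbx3 was lower together with Tbx5 (-4.32, adjusted p = 3.5e-12).

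**Figure D5:**
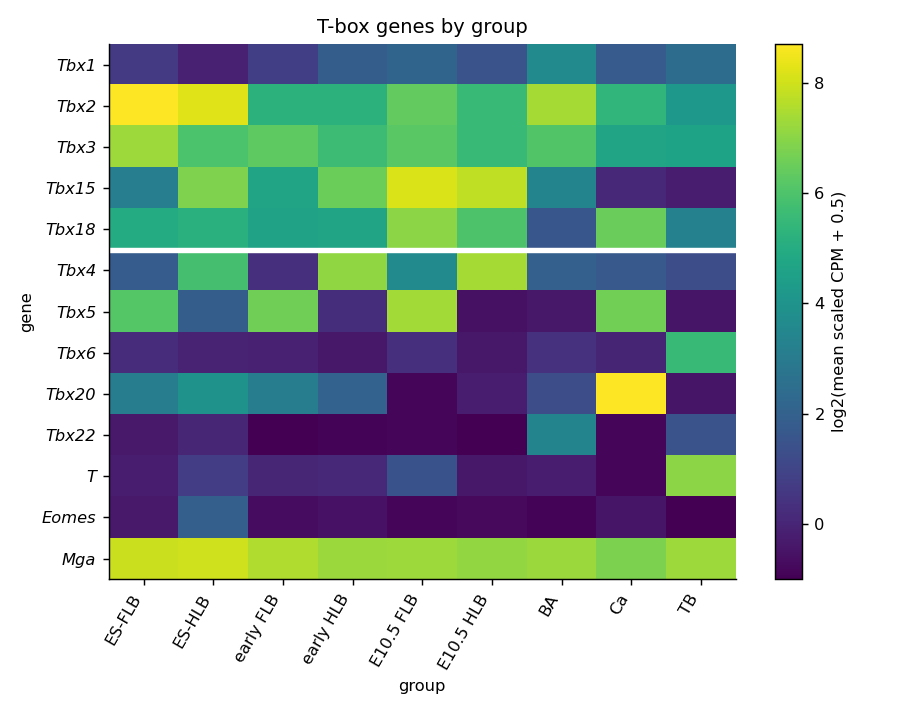
Mean level of the 5 genes (above the white line) and of 8 other T-box genes in each group, as log2(scaled CPM + 0.5). Tbx2 and Tbx3 average 17.7 scaled CPM or more in all 9 groups, whereas Tbx5 is high in forelimb-type groups and Ca, Tbx4 in hindlimb-type groups, and T and Tbx6 in TB.

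The genes whose group means were most like each member were sought among 11190 genes by Pearson's r over the 9 groups, as a description of means that share libraries. Tbx1 was closest to Wnt9b (r = 0.944), a Wnt ligand gene that averaged 25.3 scaled CPM in BA, then to Vash1 and Zfp526. Tbx2 was closest to Tead3 (r = 0.988; 23.7 to 70.3 scaled CPM), then to Rnf31 and Rab2b. Tbx3 was closest to Fam100a (r = 0.926), then to Rnf150 and Hnrnpul1. Tbx15 was closest to 4930547N16Rik (r = 0.963; 25.1 to 33.9), then to Rufy1 and 6230427J02Rik. Tbx18 had the least close neighbour, Lman1 (r = 0.873), then Tada3 and Ggnbp2. By Spearman's rho, 10 of these 15 genes were not among the 3 closest to their member: Lman1 ranked 204, Rnf150 193 and Tead3 75, whereas Tada3 ranked 1. Most of these genes spanned a far narrower range of levels than the member. Among the members the highest r was 0.75, between Tbx2 and Tbx3.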

How the data were processed

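RNA-seq libraries of 9 groups were analysed from a table in which the authors deposited CPM (reads per 1000000 reads on genes) for 23279 genes. Per the labels and methods, reads were aligned with HISAT2 2.0.4 to mm10, counted with Cuffdiff and converted to CPM with edgeR 3.16.2. For Cuffdiff the labels give Cufflinks 2.1.1, whereas the methods give another version. Each column summed to 1000000. Values fell on steps of 1 read for 93.1 to 99.1% of positive values (within 0.05 reads). Depth, read numbers and the 3-read limit were taken from these steps, but a count test was not used because the steps were incomplete in the early buds. The 5 genes, the gene lists and the left-out library were chosen with earlier results of these data known.

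CPM were rescaled by unweighted trimmed means of log ratios (30% of log ratios and 5% of intensities trimmed at each end). Genes reaching 1 CPM in 2 libraries of a group were kept. All 9 groups entered one limma 3.58.1 model (R 4.3.3, intensity trend, robust) of log2(scaled CPM + 0.5), so that fold changes of low genes are understated. P-values are two-sided and Benjamini-Hochberg adjusted over all genes tested, with a threshold of 0.05. They measure the spread between these samples, which may be technical, since the labels do not say that cultures or animals were separate. The fit was tested on simulated data. Exon lengths came from GENCODE M21 (GRCm38). From each list, up to 4 genes past the threshold with the largest change and 5 CPM or more were eligible for naming. Genes most like a member had to reach 10 CPM in a group mean. Replicate numbers shared by groups were checked by correlating residuals of 10621 genes: every same-numbered pair exceeded 0.1 in 2 of 28 group pairs (E10.5 FLB with Ca, BA with Ca). Values are from the fit without a replicate block also in those 2 comparisons, where the block changed no member call.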

Additional observations from a re-analysis of the deposited data

Results flagged for a closer look

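The limb-type difference differed between culture and early embryo for 2 of the 5 genes, where 19.9% of all genes tested passed. The change with stage differed between limb types for 4 of the 5, where 20.9% of all genes tested passed. The hindlimb-forelimb difference on the log2 scale was larger in ES-LBs than in early buds for Tbx15 (by 1.79). For Tbx1 it was 1.10 in early buds and -0.77 in ES-LBs, where it did not pass on its own, and the difference between them was -1.87. The change from early to E10.5 buds was smaller in hindlimb than in forelimb buds for Tbx15 (-2.26), Tbx18 (-1.10) and Tbx2 (-0.83), and lower for Tbx1 (-1.65). A legend of the study gives the hindlimb buds the shorter interval, so limb type and interval cannot be told apart here. The E10.5 hindlimb group rests on 2 libraries, and the Tbx1 values rest on 10 to 181 reads a group. The Tbx1 call in the test of stage between limb types was kept in 28 of 37 other settings.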

How the results depend on the processing

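Of 75 member differences (5 genes in 15 comparisons), 53 passed the threshold. None of these 53 changed sign under the 11 other settings or the 26 fits that each left out 1 library, and 43 stayed past the threshold in all of them. CPM without rescaling shifted the median over all genes by 0.16 in E10.5 FLB against early FLB, by 0.21 in ES-FLB and 0.17 in ES-HLB against early buds, by 0.11 in ES-HLB against E10.5 HLB, by -0.11 in Ca against E10.5 FLB, by 0.13 in BA against Ca and by -0.11 in stage between limb types. With it, differences that had not passed turned sign for Tbx3 in E10.5 FLB against early FLB (0.13) and Tbx1 in ES-FLB against early FLB (0.049). Leaving out 1 library at a time also turned the sign of 5 differences that passed in neither fit. Their ranges were -0.35 to 0.056 for Tbx1 in ES-FLB against early FLB, -0.087 to 0.058 for Tbx2 and -0.10 to 0.22 for Tbx18 in early HLB against early FLB, -0.33 to 0.099 for Tbx3 in E10.5 HLB against early HLB, and -0.27 to 0.16 for Tbx3 in the test of stage between limb types. The share of higher genes among those called moved by over 10 points without rescaling in 8 comparisons: to 60.9% from 43.8% in early HLB and to 28.4% from 50.6% in E10.5 HLB, each against FLB, to 66.6% from 45.6% and 58.2% from 41.3% in E10.5 against early FLB and HLB, to 62.9% from 49.9% and 61.4% from 50.0% in ES-FLB and ES-HLB against early buds, to 44.8% from 56.4% in culture against embryo for limb type, and to 26.2% from 54.1% in stage between limb types. The causes were not tested.

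The members past the threshold in culture against embryo for limb type rose from 2 to 4 with only the libraries of the comparison. Leaving out 1 library at a time gave 1 to 3 members in early HLB against early FLB, 2 to 4 in culture against embryo and 2 to 4 in stage between limb types, and 1440 to 3226 genes of all tested in E10.5 HLB against E10.5 FLB. Tbx1 in early HLB against early FLB also lost its call with a pseudocount of 1 CPM, an alternative chosen after seeing the data (adjusted p = 0.057), of 2 CPM (0.094) or without trend and robust fitting (0.057). Its stage test lost it with 2 CPM (0.069) or without trend and robust fitting (0.053). Tbx15 in ES-HLB against E10.5 HLB lost its call with 0.1 CPM (0.054). The log2 value of Tbx15 in TB against E10.5 FLB ran from -9.49 to -6.92 and in Ca from -8.80 to -6.80 over pseudocounts of 0.1 to 2 CPM.

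With the replicate number as a block, Tbx3 in ES-HLB against E10.5 HLB passed (0.45, adjusted p = 0.0392), 1 of the 14 settings of 37 in which it did, and no other member call changed. Counts of all genes called moved by under 1.5 times. Median same-numbered correlation was 0.037. The planned edgeR test was not run, since whole reads could not be recovered in every library. Low read numbers limit Tbx1 in ES-HLB and Tbx15 in Ca and TB.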

Other observations

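The left-out E10.5 HLB replicate 2 still had values for the members on chromosomes outside the lost ones. As deposited, it held 308 CPM of Tbx15 (1129 reads), 78.9 CPM of Tbx2 (289 reads) and 4.37 CPM of Tbx1 (16 reads), and 0 of Tbx3 and Tbx18. Its total covers fewer genes, so these CPM are not comparable with those of the other libraries.

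Single libraries stood apart in tissues outside the limb. BA replicate 3 had 17.7 scaled CPM of Tbx1 against 7.87 and 9.41, and 3.90 of Tbx18 against 2.14 and 1.51, while its summed branchial arch mesenchyme markers (547) lay near those of replicates 1 and 2 (531 and 510) and its cardiomyocyte markers summed to 22.1 against 10.9 and 12.4. Ca replicate 3 had the highest Tbx1 (5.60), Tbx2 (54.2) and Tbx3 (32.0) of its group, together with the highest sums of limb bud mesenchyme markers (196, against 131 and 126) and of branchial arch mesenchyme markers (111, against 94.3 and 77.0).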
